A study of Mus musculus with 21 samples.

Results

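Oxidative phosphorylation is described here through the nuclear genes that encode it, in embryoid bodies made from mouse embryonic stem cells with and without the gene Cxxc5. The members are genes whose symbol begins with Nduf, Uqcr, Cox4 to Cox8 or Atp5, or is Sdha, Sdhb, Sdhc or Sdhd, and whose mean level over the 12 libraries was at least 1 FPKM. FPKM counts fragments relative to transcript length and to the mapped fragments of the library, so it allows levels of different genes to be compared per length. Of 93 matching symbols, 87 reached the minimum, out of 24458 genes in the table and 12472 genes that reached the same minimum. They comprise 37 genes named as complex I subunits, 8 Ndufaf genes for assembly of complex I, 4 genes of complex II, 8 of complex III, 13 of complex IV and 17 named as complex V. Complexes were assigned by symbol alone. Atp5s and Atp5sl, counted here in complex V, bear the RefSeq symbols Dmac2l and Dmac2, which do not refer to complex V. Subunits encoded by mitochondrial DNA are not analysed here.

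The electron transport chain of the inner mitochondrial membrane passes electrons from NADH (complex I) and succinate (complex II) through ubiquinone, complex III and cytochrome c to oxygen at complex IV. Complexes I, III and IV pump protons, and ATP synthase, complex V, uses the resulting gradient to make ATP. Pluripotent stem cells are known for strong glycolysis beside respiration, and the balance between both shifts as cells differentiate.

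The knockout libraries came from embryoid bodies lacking Cxxc5, also named Rinf, a CXXC zinc finger protein, and the wild type libraries from embryoid bodies that kept it. Each genotype had 2 independent stem cell lines, differentiated by hanging drop, with 1 library for each of replicates 1 and 2 at day 0, day 3 and day 6. The labels do not state which line a replicate number stands for. All lines were of mixed 129/C57BL/6 strain at passages 15-18, and stem cells had been kept in serum with LIF on gelatin. Cxxc5 itself stood at 27.5%, 18.1% and 23.1% of its wild type mean in knockout embryoid bodies at days 0, 3 and 6, lower in each knockout library than in any wild type library. The sources used here do not give the deleted part of Cxxc5. These values serve as a check of the labels.

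Estimated depth was 16.7 M to 36.1 M reads per library, so that a 2 kb transcript at 1 FPKM is backed by 30.0 to 64.9 reads. Comparisons used limma, a linear model fitted to all 12472 genes over the 12 libraries, on log2(FPKM + 1), with p-values adjusted by Benjamini-Hochberg over all genes. A gene is said to have risen or fallen where the adjusted p was under 0.05. Fold changes on this scale understate those of low genes. The smallest p of an exact permutation test of 2 libraries against 2 is 0.333, and no gene was tested outside the model. In bulk samples, fewer cells of a type and less RNA per cell cannot be told apart.

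The members were highly expressed, with mean levels from 3.41 FPKM for Ndufaf5, an assembly factor that modifies a complex I subunit, to 702 FPKM for Atp5b, the catalytic beta subunit of ATP synthase. The median over members was 80.8 FPKM, against 11.1 FPKM over all tested genes. A mean of at least 100 FPKM was reached by 39 members, and 5 members lay under 10 FPKM. Levels were ordered by complex, with median levels of 12.5 FPKM for the assembly factors, 59.6 for complex I, 72.5 for complex II, 130 for complex III, 164 for complex IV and 222 for complex V. In complex IV the highest level was that of Cox4i1, the ubiquitous form of subunit 4, at 617 FPKM. In complex III it was Uqcrb, a small structural subunit, at 276 FPKM.

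Of the names below the minimum, Cox7b2 was nearest to it at a mean of 0.969 FPKM, and Ndufaf5 at 3.41 FPKM was the lowest member. The tissue-restricted isoforms Cox4i2, Cox6a2, Cox7b2, Cox8b and Cox8c had means between 0.00770 and 0.969 FPKM. Ndufs5, a complex I subunit, was listed at 0 in 9 of 12 libraries, and an exact 0 in such a table can be a failed estimate.

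**Figure D1:**
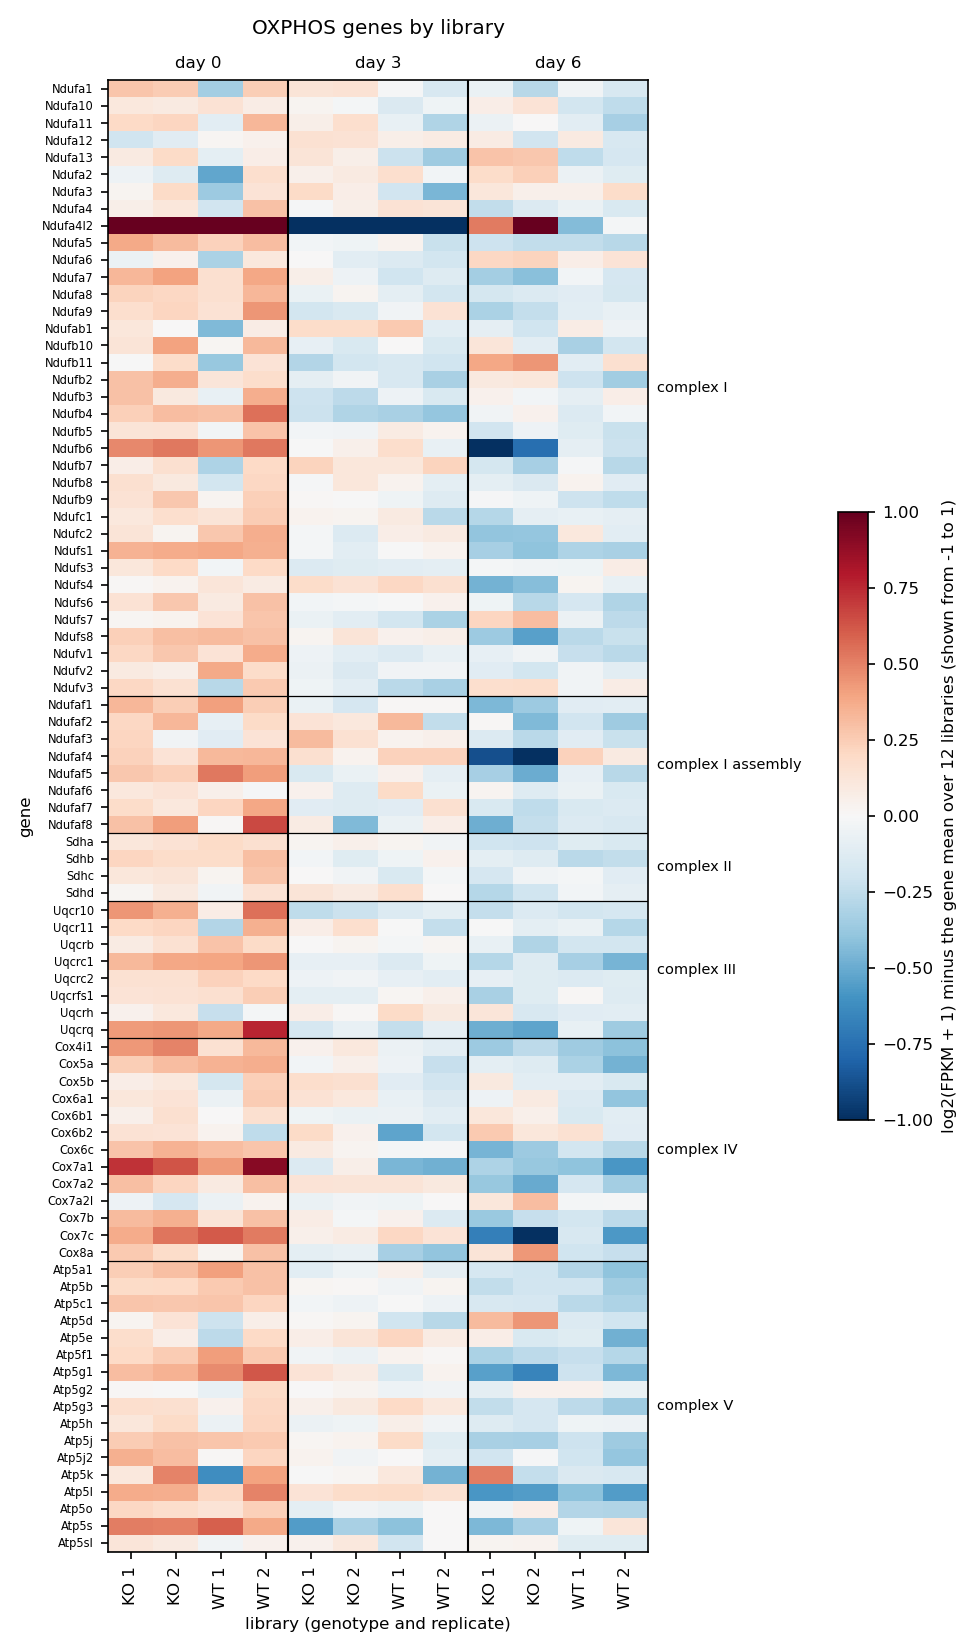
Level of 86 of the 87 genes (down the page, by complex) in each of the 12 libraries (columns, by day, then knockout and wild type), as log2(FPKM + 1) minus the mean of that gene, with colours limited to -1 to 1. Most genes are red at day 0 and blue at day 6, and Ndufaf4, Ndufb6 and Cox7c are the darkest blue in the 2 knockout libraries of day 6.

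Levels of most members were lower at later days in both genotypes. The members together took 2.10% and 2.10% of all FPKM in knockout embryoid bodies at day 0, 2.00% and 2.05% on day 3, then 1.83% and 1.86% at day 6. In wild type they took 2.09% and 2.15% at day 0, 1.92% and 1.91% on day 3, then 1.87% and 1.79% at day 6. The day 6 mean lay below the day 0 mean for 76 of 87 members in knockout and for 80 of 87 in wild type. The median member was at 80.2% of its day 0 level by day 6 in knockout and at 77.2% in wild type. These 2 measures were not taken over all tested genes. The mean summed FPKM of all genes also fell from day 0 to day 6, from 594240 to 524960 in knockout and from 578420 to 508230 in wild type. The median log2 change over all tested genes was -0.021 and then -0.0019 at the 2 steps in knockout, and -0.022 and then -0.011 in wild type.

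In knockout embryoid bodies, 37 members fell and 2 rose at day 3 against day 0, and 27 fell and 7 rose at day 6 against day 3. Over all tested genes 52.6% changed at the first step (24.6% higher, 28% lower) and 59.1% at the second (29.2% higher, 29.9% lower). The median log2 change of the members was -0.20 and then -0.13. In wild type, 40 members fell and 1 rose at the first step, where 55.7% of all tested genes changed, 25.5% higher and 30.2% lower. At the second step 19 fell and 2 rose, where 35.9% of all genes changed, 17.4% higher and 18.4% lower, and the median log2 changes of the members were -0.24 and -0.14. The genotypes have separate libraries but were tested in the same fit, with a shared estimate of spread per gene. Their calls are therefore not independent, and their overlap over all tested genes was not counted. Of the members, 31 fell at the first step in both, which is 83.8% of those that fell in knockout and 77.5% of those that fell in wild type. At the second step 14 fell in both, which is 51.9% of those that fell in knockout and 73.7% of those in wild type.

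These counts depend on how the libraries are scaled. After quantile normalization, which gives each library the same distribution of values, knockout had 13 members lower and 7 higher at the first step and 20 lower and 14 higher at the second, and the direction turned for wild type at the second step, with 4 lower and 6 higher after 20 lower and 6 higher at the first. After division by the summed FPKM of each library, knockout had 14 lower and 3 higher, then 23 lower and 10 higher, and wild type had 26 lower and 1 higher, then 5 lower and 6 higher. That division moved the median log2 change of all genes by 0.131 in knockout at the first step, to 0.109.

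Wild type replicate 1 at day 0 stood apart for these genes: 68 of 87 members were lower there than in replicate 2, by a median of 0.178 on the log2 scale, against 42.7% of all tested genes. Ndufa2, Ndufaf8, Uqcr11 and Atp5k differed by over 1.5-fold between those replicates. Without that library the median log2 change of the members at the first step in wild type was -0.30, against -0.02 over all tested genes. Without replicate 2 of that group it was -0.13, also against -0.02.

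**Figure D2:**
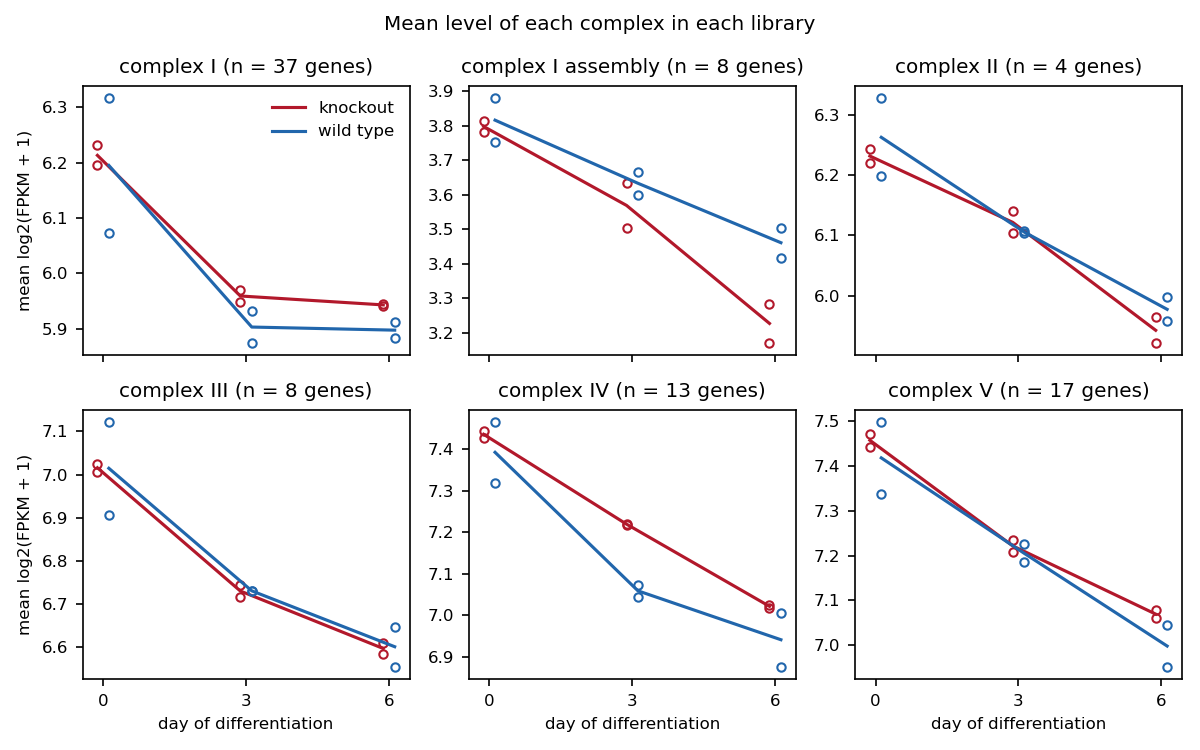
Mean of log2(FPKM + 1) over the genes of each complex in each library (open circles) at days 0, 3 and 6, with lines through the group means (knockout red, wild type blue; each vertical axis has its own range). Every complex is lower at day 6 than at day 0 in both genotypes, and the wild type libraries of day 0 lie far apart.

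Some central subunits fell at both steps. Ndufs1, the iron-sulfur subunit of complex I that receives electrons near the NADH site, stood at 64.5 and 65.8 FPKM in knockout at day 0, 49.97 and 47.1 on day 3, then 40.0 and 38.1 at day 6. In wild type it stood at 66.4 and 65.1 FPKM at day 0, 50.6 and 52.0 on day 3, then 40.6 and 40.1 at day 6. The days did not overlap in either genotype, and the genotypes lay close at each day. Ndufs1 fell by 0.42 and 0.31 on the log2 scale in knockout at the first and second step, and by 0.35 and 0.34 in wild type. Ndufs1, Ndufs8, Cox4i1, Cox6c, Atp5b, Atp5c1 and Atp5f1 fell at both steps in both genotypes. Among them Ndufs8 is an iron-sulfur subunit of complex I, Atp5c1 the gamma subunit of the rotor and Atp5f1 a subunit of the peripheral stalk.

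Cox4i1 was at 815 and 851 FPKM in knockout at day 0, 620 and 650 on day 3, then 468 and 504 at day 6, with no overlap of days. In wild type it was at 669 and 757 FPKM, 578 and 561, and 471 and 455 on these days, again with no overlap. Of 11 catalytic or central subunits fixed as a list, among them Ndufs1, Ndufv1, Atp5a1 and Atp5b, 10 fell at the first step in knockout and 4 at the second, while in wild type 10 fell and then 8.

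Ndufa4l2 fell and then rose in both genotypes. It is a paralogue of Ndufa4 known as a hypoxia-inducible gene, and both are placed by name in complex I although Ndufa4 protein is found in complex IV. Ndufa4l2 had 9.98 and 10.8 FPKM in knockout at day 0, 0.817 and 0.618 on day 3, then 6.65 and 10.02 at day 6. In wild type it had 17.2 and 17.4 FPKM at day 0, 0.347 and 0.786 on day 3, then 2.95 and 4.28 at day 6. It was near 0 at day 3 in all 4 libraries and higher again in all 4 at day 6. In knockout it fell by 2.73 on the log2 scale (SE 0.20, adjusted p = 2e-05) and then rose by 2.42 (SE 0.20, adjusted p = 8.1e-05). In wild type it fell by 3.56 (SE 0.20, adjusted p = 3.9e-06) and then rose by 1.56 (SE 0.20, adjusted p = 0.0021). Ndufa4l2 overlaps Shmt2 on the genome, and the sources used here do not say whether counting used strand.

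Cox7a1, the heart and muscle form of subunit 7a, stood at 37.3 and 34.8 FPKM in knockout at day 0, 20.1 and 23.1 on day 3, then 17.8 and 16.9 at day 6. In wild type it stood at 30.2 and 42.7 FPKM at day 0, 15.9 and 15.6 on day 3, then 16.6 and 14.5 at day 6. Day 0 was above the later days in both genotypes, and Cox7a1 fell at the first step by 0.72 in knockout (adjusted p = 0.0031) and by 1.14 in wild type (adjusted p = 0.00022).

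Atp5g1, Atp5g2 and Atp5g3 encode the same c subunit of the ATP synthase rotor with different import signals. The share of Atp5g1 in their summed FPKM was 23.6% and 24.3% in knockout at day 0, 22.2% and 21.1% on day 3, then 16.8% and 14.7% at day 6. In wild type it was 27.1% and 26.2%, 18.5% and 20.9%, and 19.5% and 18.0%. The share of Atp5g2 was 47.8% to 49.9% in the 4 libraries of day 6 and 38.6% to 40.3% in those of day 0. Atp5g1 fell by 0.72 at the second step in knockout (SE 0.10, adjusted p = 0.00049) and by 0.61 at the first in wild type (SE 0.10, adjusted p = 0.00089), while Atp5g2 passed the test at neither step in either genotype.

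A few other members rose. Ndufb4, an accessory subunit of the membrane arm, rose at the second step by 0.26 in knockout and 0.27 in wild type after it had fallen by 0.53 and 0.78. Ndufb11, another membrane arm subunit, rose by 0.65 at the second step in knockout (SE 0.16, adjusted p = 0.0067).

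No member passed the test between knockout and wild type embryoid bodies at day 0 or day 3. At day 0 limma called 0 of 87 members, and 0.369% of all tested genes. At day 3 it called 0 of 87, and 1.19% of all tested genes. The fit shares its estimate of spread over days, and replicates differed by over 1.5-fold for more genes at day 6 than earlier. Without the libraries of day 6, it called 0 members at both days, and 2.89% and 4.37% of all tested genes at days 0 and 3. At an unadjusted p under 0.05 the members numbered 5 (5.75%) and 9 (10.3%), against 14.7% and 14.8% of all tested genes. The median log2 difference of the members was 0.02 at both days. The 95% interval of the difference lay within 1.5-fold either way for 81 members at day 0, 77 at day 3 and 72 at day 6. That is 93.1%, 88.5% and 82.8% of members, against 80.2%, 80.9% and 63.7% of all tested genes. The median half-width over members was 0.205 on the log2 scale. Knockout and wild type libraries were fully separated (no overlap) for 30 members at day 0 and 49 at day 3, which is 34.5% and 56.3% of members, against 49.8% and 60.3% of all tested genes. Dividing by the summed FPKM gave 1 member at day 3, Ndufa13, higher in knockout.

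The members that lay farthest from 0 at these days can be named without a call. At day 0 Ndufa4l2 had 9.98 and 10.8 FPKM in knockout, against 17.2 and 17.4 in wild type, with a log2 difference of -0.68 (SE 0.20, adjusted p = 0.181). At day 3 Cox6b2, the testis form of subunit 6b, had 26.6 and 23.9 FPKM in knockout, against 15.8 and 20.3 in wild type. Its log2 difference was 0.47 (SE 0.14, adjusted p = 0.164). Cox7a1 had a log2 difference of 0.43 (adjusted p = 0.204) at day 3. For the 11 central subunits the log2 differences ran from -0.08 to 0.23 at day 0 and from -0.13 to 0.16 at day 3. The outermost bounds of their 95% intervals were -0.26 and 0.39 at day 0 and -0.31 and 0.33 at day 3.

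**Figure D3:**
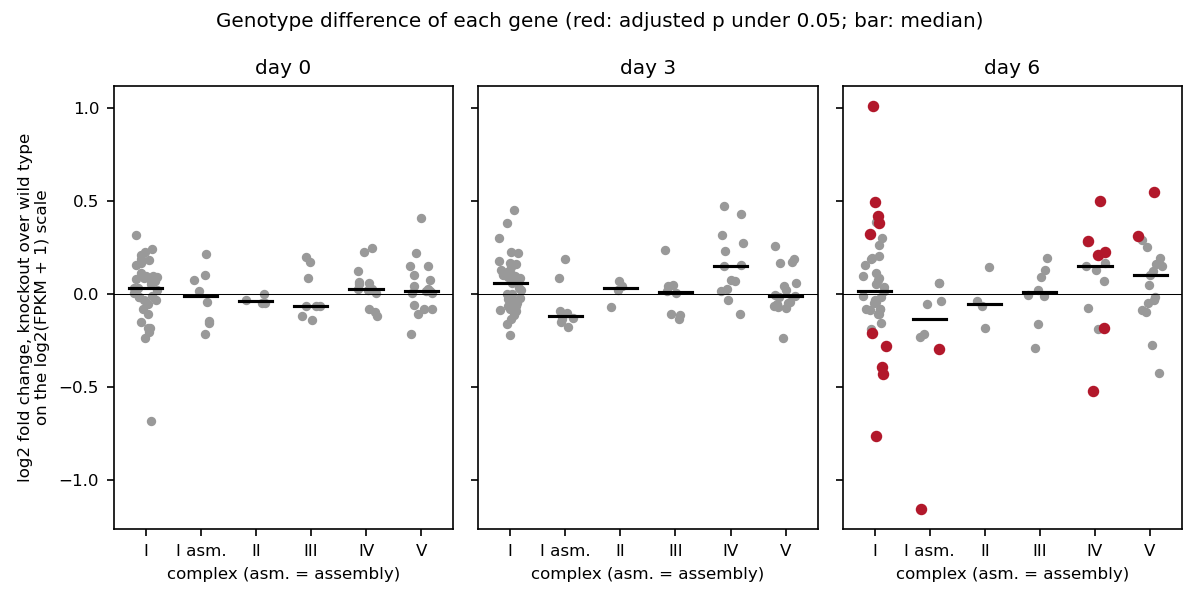
Log2 fold change of each gene, knockout over wild type, by complex at days 0, 3 and 6 (points; red where the adjusted p was under 0.05; bar, median of the complex; I asm., Ndufaf assembly factors). No point is red at day 0 or 3, and at day 6 red points lie on both sides of 0, 11 above and 9 below.

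At day 6, 20 of 87 members differed between genotypes, 11 higher and 9 lower in knockout, or 23.0%. Over all tested genes 34.1% differed, 17.9% higher and 16.2% lower. With trends on transcript length and GC content removed, the shares were 19.5% of members and 19.4% of all tested genes. The median log2 difference was 0.02 for the members and for all tested genes. Of complex I, 5 subunits were higher and 5 lower in knockout. Complex IV had 4 higher and 2 lower, complex V 2 higher, the assembly factors 2 lower, and complexes II and III none. The libraries did not overlap for 53 members, 60.9%, against 63.6% of all tested genes. Without knockout replicate 2 the median log2 difference of the members was 0.04, against 0.01 over all tested genes. Without wild type replicate 1 it was 0.04, against 0.03. When the 4 libraries of day 6 were fitted alone, 0 members were called, with only 20 genes called in the whole table.

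The lower members were led by Ndufaf4, an assembly factor of complex I. The gene overlaps Gm46848 and spans chr4:24898083-24905001 in mm10 coordinates. It had 5.29 and 4.33 FPKM in knockout at day 6, against 12.5 and 11.3 FPKM in wild type. Both knockout libraries lay far below the wild type pair, and also below all libraries of days 0 and 3, which held 10.8 to 13.5 FPKM. The mean was 4.81 ± 0.678 FPKM in knockout and 11.9 ± 0.897 FPKM in wild type (SD, n = 2 each), or 40.4% of wild type. The log2 difference was -1.15 (SE 0.09, adjusted p = 1.6e-04 by limma).

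Ndufb6, an accessory subunit of the membrane arm of complex I, had 29.4 and 37.0 FPKM in knockout, against 59.3 and 54.3 in wild type. The groups did not overlap, and at day 3 they had lain together, at 62.8 and 65.5 FPKM in knockout and 71.2 and 59.9 in wild type. The day 6 log2 difference was -0.76 (SE 0.11, adjusted p = 0.0022). Ndufs4, a subunit near the NADH-oxidising module whose loss in mice causes an encephalopathy, had 24.4 and 25.2 FPKM in knockout, against 34.95 and 32.4 in wild type, also without overlap. Its log2 difference was -0.43 (SE 0.05, adjusted p = 0.0010). Cox7c, which encodes a structural subunit of complex IV and overlaps Gm22574, had 65.3 and 48.6 FPKM in knockout, against 93.9 and 70.4 in wild type. The replicates lay wide apart and the groups came close, with a log2 difference of -0.52 (SE 0.16, adjusted p = 0.032). The call for Cox7c was lost without knockout replicate 2, at -0.31 (adjusted p = 0.204), and without wild type replicate 1, at -0.32 (adjusted p = 0.184).

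The other lower members changed less. Ndufc2, of the membrane arm, differed by -0.39 on the log2 scale, and Ndufaf1, an assembly factor, by -0.30. Ndufa7, an accessory subunit, differed by -0.28 and Ndufs8 by -0.21. Cox6c, a small subunit of complex IV, was the most abundant of the lower members, at 304 and 326 FPKM in knockout against 370 and 346 in wild type, with a log2 difference of -0.18 (adjusted p = 0.041). Ndufa7 lost the call without either knockout replicate and without wild type replicate 1, and Ndufs8 without knockout replicate 2 and without either wild type replicate. Both also lost it with a replicate block (adjusted p = 0.050 and 0.059) and with no filter on low genes (adjusted p = 0.053 and 0.051).

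Promoter sequences of 4 lower members and of 1 higher member are shown to set them beside binding motifs of regulators known for respiratory genes. They are RefSeq windows of the build GRCm38.p6, from 250 bases before to 50 bases after an annotated start, and 74 of 87 members had such a window. Motifs of 3 kinds were searched on both strands: the half-site GCGCA followed directly by its reverse complement for NRF1, CCGGAAG for the ETS family that includes GABP, and AAGATGGCG for YY1. Capitals mark a match. The windows lie at chr4:24897833-24898132 on the plus strand (Ndufaf4), chr4:40279372-40279671 (Ndufb6), chr13:114388045-114388344 (Ndufs4), chr13:86046746-86047045 (Cox7c) and chr19:7217567-7217866 (Cox8a), all but the window of Ndufaf4 on the minus strand.
Ndufaf4: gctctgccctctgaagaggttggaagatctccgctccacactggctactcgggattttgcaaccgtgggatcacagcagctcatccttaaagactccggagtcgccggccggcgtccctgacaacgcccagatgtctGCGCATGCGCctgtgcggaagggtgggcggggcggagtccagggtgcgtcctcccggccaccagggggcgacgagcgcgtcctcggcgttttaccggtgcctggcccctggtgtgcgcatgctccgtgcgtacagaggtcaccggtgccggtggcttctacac
Ndufb6: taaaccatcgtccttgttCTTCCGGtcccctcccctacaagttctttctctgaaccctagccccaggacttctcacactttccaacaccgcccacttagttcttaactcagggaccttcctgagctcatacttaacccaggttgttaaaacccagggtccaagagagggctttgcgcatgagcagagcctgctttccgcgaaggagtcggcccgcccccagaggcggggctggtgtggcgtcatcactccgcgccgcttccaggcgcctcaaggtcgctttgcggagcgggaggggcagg
Ndufs4: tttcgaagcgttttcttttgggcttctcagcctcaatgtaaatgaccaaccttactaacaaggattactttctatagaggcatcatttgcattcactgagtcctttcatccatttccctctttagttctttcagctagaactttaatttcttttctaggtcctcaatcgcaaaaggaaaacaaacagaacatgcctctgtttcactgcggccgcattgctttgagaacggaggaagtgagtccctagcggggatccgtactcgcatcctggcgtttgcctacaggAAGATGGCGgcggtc
Cox7c: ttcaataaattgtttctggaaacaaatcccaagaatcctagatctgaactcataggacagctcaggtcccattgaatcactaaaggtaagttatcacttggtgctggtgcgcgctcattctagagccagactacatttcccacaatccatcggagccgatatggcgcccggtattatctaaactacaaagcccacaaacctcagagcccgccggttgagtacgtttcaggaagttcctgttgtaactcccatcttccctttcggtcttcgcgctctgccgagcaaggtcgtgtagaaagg
Cox8a: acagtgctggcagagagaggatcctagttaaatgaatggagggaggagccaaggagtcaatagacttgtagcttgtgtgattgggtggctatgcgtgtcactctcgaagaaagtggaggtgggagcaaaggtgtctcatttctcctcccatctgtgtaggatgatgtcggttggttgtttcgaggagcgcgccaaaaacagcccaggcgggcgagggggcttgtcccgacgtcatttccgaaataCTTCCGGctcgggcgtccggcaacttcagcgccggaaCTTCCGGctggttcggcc
Ndufaf4 holds the NRF1 letters, Ndufb6 the ETS letters, Ndufs4 the YY1 letters and Cox8a the ETS letters in 2 places, a match on either strand counting, and Cox7c holds none of the motifs. Over the 74 members with a window, the NRF1 letters were in 7 (9.46%), against 1.07% of all 27025 genes with a window and 2.38% of tested genes. The YY1 letters were in 9 (12.2%), against 1.64% and 3.73%, and the ETS letters in 18 (24.3%), against 9.93% and 20.6%. Of the members that were higher in knockout at day 6, 10 had a window, and the letters of NRF1, ETS and YY1 were in 0, 2 and 1 of them. Of the lower ones, 8 had a window, with 1, 3 and 1. The other genes with the NRF1 letters include Uqcrc1, Cox6a1 and Atp5g2, and those with the YY1 letters include Ndufs7 and Atp5j.

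Among the higher members, Ndufa4l2 had 6.65 and 10.02 FPKM in knockout at day 6, against 2.95 and 4.28 in wild type, without overlap. Its log2 difference was 1.01 (SE 0.20, adjusted p = 0.0075), and 0.75 without knockout replicate 2 (adjusted p = 0.053). Atp5d, the delta subunit in the central stalk of ATP synthase, had 167 and 182 FPKM in knockout, against 122 and 116 in wild type. The pairs lay well apart, with a log2 difference of 0.55 (SE 0.09, adjusted p = 0.0033). Atp5d overlaps the gene Cbarp.

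Cox8a, the ubiquitous form of subunit 8 of complex IV, had 290 and 359 FPKM in knockout, against 230 and 226 in wild type. Knockout replicate 2 stood highest of the 12 libraries, and the log2 difference of 0.50 (SE 0.11, adjusted p = 0.010) was 0.35 without it (adjusted p = 0.062). Ndufa13, a complex I subunit also known as GRIM-19, had 66.5 and 65.7 FPKM in knockout, against 45.4 and 48.1 in wild type, and the log2 difference was 0.49 (SE 0.08, adjusted p = 0.0025). Ndufa13 overlaps Tssk6. At day 3 it already stood at 59.5 and 56.6 FPKM in knockout, against 46.7 and 42.2 in wild type, without a call in the fit as deposited.

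Ndufs7, an iron-sulfur subunit of complex I, had 63.5 and 67.8 FPKM in knockout, against 52.4 and 45.5 in wild type, with a log2 difference of 0.42 (SE 0.08, adjusted p = 0.0066). Ndufb2 and Ndufa10, accessory subunits of complex I, differed by 0.38 and 0.32. Atp5o, the peripheral stalk subunit also called OSCP, differed by 0.31, and Cox5a, a matrix-side subunit of complex IV, by 0.28. The smallest called rises were those of Cox7a2l, known for its part in respiratory supercomplexes, by 0.23, and Cox6b1, by 0.21. For the 11 central subunits the log2 differences ran from -0.16 to 0.28 at day 6, and of these Cox5a alone was called.

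**Figure D4:**
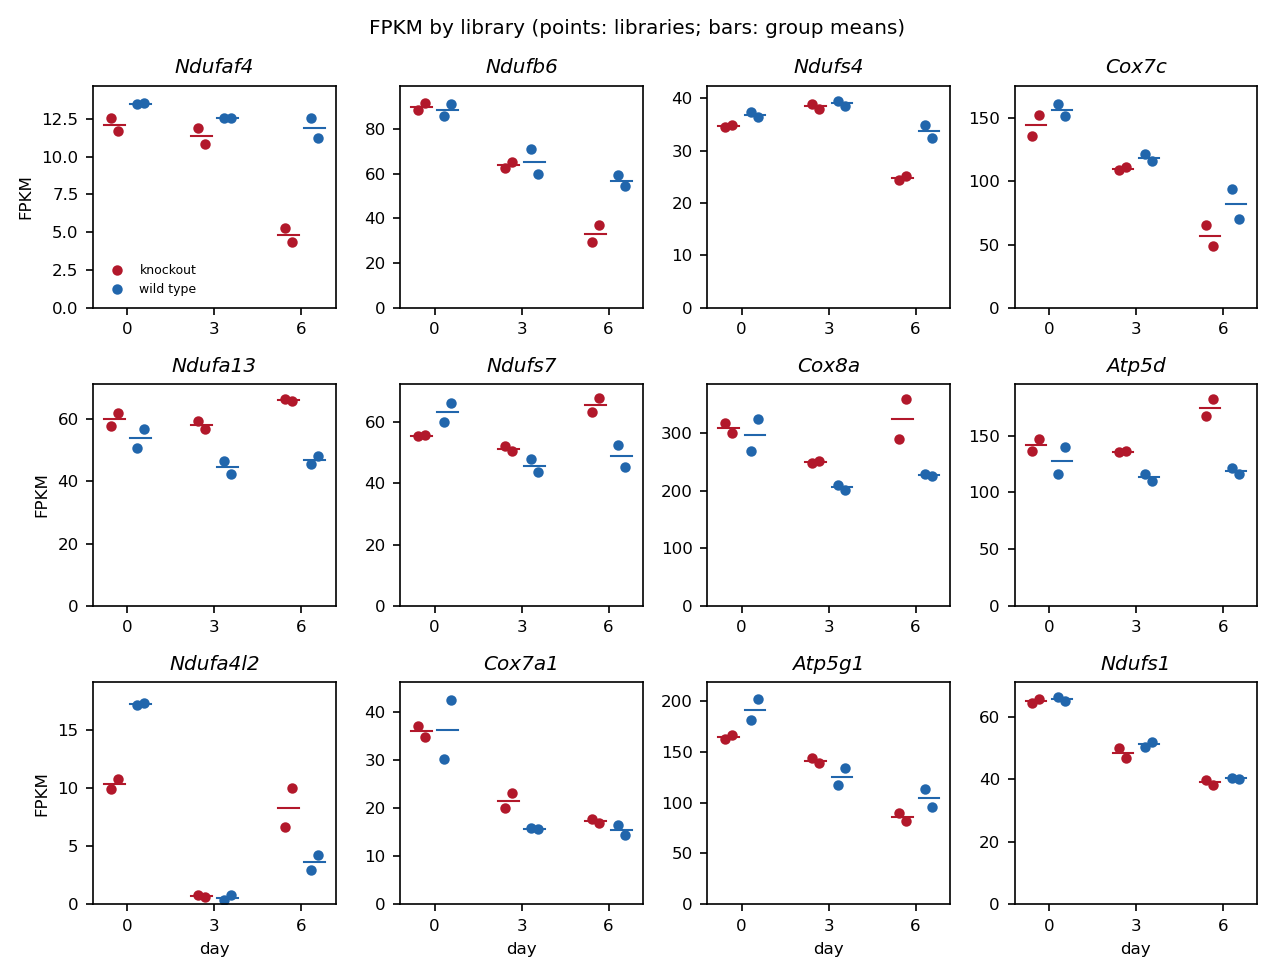
FPKM of 12 genes in each library (points) at days 0, 3 and 6, with group means (bars), knockout red and left of wild type in blue; axes start at 0 and have their own range. Ndufaf4, Ndufb6 and Ndufs4 lie farther apart between genotypes at day 6 than at day 3, and Ndufa4l2 is near 0 at day 3 in both.

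Whether the genotype difference at day 6 departed from that at day 3 was tested as an interaction. Of the members 3 were called, all more negative at day 6, or 3.45%, against 4.51% of all tested genes (1.3% more positive, 3.21% more negative). The change of the difference was -1.02 for Ndufaf4 (SE 0.13, adjusted p = 0.0078), -0.74 for Ndufb6 (SE 0.16, adjusted p = 0.041) and -0.41 for Ndufs4 (SE 0.07, adjusted p = 0.027). In knockout these genes fell at the second step by 1.09, 0.94 and 0.61 on the log2 scale, and of them only Ndufs4 fell in wild type, by 0.21. For the step from day 0 to day 3 the interaction was called for 0 members and 0.0401% of all tested genes, with 3 members (3.45%) at an unadjusted p under 0.05, against 7.67% of all tested genes. Over 15 alternative fits, the reported one not included, the interaction was called in 14 for Ndufaf4, 6 for Ndufb6 and 7 for Ndufs4. With a replicate block within genotype Ndufaf4 alone was called (adjusted p = 0.013), and the adjusted p was 0.067 for Ndufb6 and 0.060 for Ndufs4. Leaving out any 1 library of day 3, or wild type replicate 1 of day 6, also left Ndufaf4 alone. With trends on transcript length and GC content removed the interaction of Ndufaf4 was -0.65 (adjusted p = 0.053), and then Ndufb6 was at -0.78 (adjusted p = 0.057) and Ndufs4 at -0.27 (adjusted p = 0.097), so that 0 members were called.

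GC content moved with the day 6 differences. The median GC content of transcripts was 52.8% for the 11 higher members, 47.0% for the 9 lower and 51.0% for the 67 others. Over the 87 members the log2 difference at day 6 and GC content had a Pearson's r of 0.55 and a Spearman's rho of 0.51, and over 12399 tested genes 0.38 and 0.50. These are correlations across genes of the same 4 libraries, and genes are not independent. With these trends removed, 17 members (19.5%, against 19.4% of all tested genes) were called at day 6, 9 higher and 8 lower, of which 13 were among the 20. Ndufaf4 then differed by -0.70 (adjusted p = 0.0030), Ndufb6 by -0.78 (adjusted p = 0.0045) and Ndufa4l2 by 0.78 (adjusted p = 0.031), while Ndufs7 at 0.19 (adjusted p = 0.109), Cox8a at 0.29 (adjusted p = 0.064) and Cox7c at -0.38 (adjusted p = 0.0998) were not called.

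**Figure D5:**
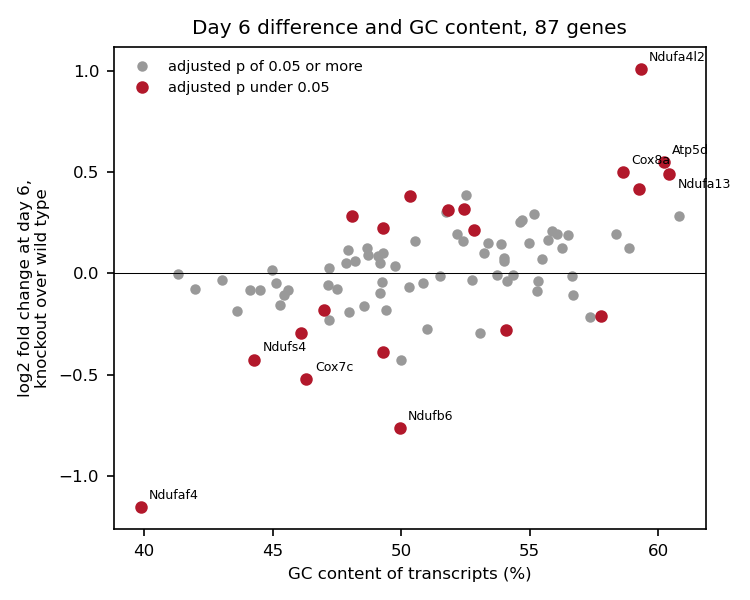
Log2 fold change at day 6, knockout over wild type, against the GC content of the transcripts in percent, for 87 genes (red, adjusted p under 0.05). Ndufaf4 has the lowest GC content and the most negative difference, and the 5 largest positive differences lie at 58.6% GC or above.

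Summed levels of some lists of cell type markers, though not of all, were separated by genotype at day 6. Summed FPKM of 11 cardiac and lateral mesoderm markers was 320 and 507 in knockout, against 26.0 and 193 in wild type. Hand1 was the largest part in knockout, at 137 and 236 FPKM. Of the 9 tested markers of this list, 7 had a positive and 2 a negative log2 difference. Actc1 was lower in knockout, at 2.10 and 0.773 FPKM against 3.80 and 4.66 in wild type. Summed FPKM of 9 trophoblast markers was 715 and 996 in knockout, against 191 and 453 in wild type. The keratins Krt8 and Krt18 were the largest parts, and Elf5 was at most 0.180 FPKM in any of these libraries. For 10 pluripotency markers it was 727 and 334 in knockout, against 1043 and 583 in wild type, so that the genotypes overlapped. For 10 endoderm markers it was 48.2 and 77.1 in knockout, against 52.9 and 74.2 in wild type, also with overlap. For 10 neuroectoderm markers it was 86.3 and 44.7 in knockout, against 180 and 107 in wild type. Sums of 11 blood and endothelium markers were 80.6 and 127 in knockout, against 18.8 and 68.5 in wild type. Their part in the differences of the members was not tested. At day 3 the cardiac and lateral mesoderm sums were 5.75 to 7.32 FPKM in all 4 libraries. Without wild type replicate 1, the library with the lowest mesoderm sum, the day 6 difference was -1.08 for Ndufaf4, -0.70 for Ndufb6 and -0.37 for Ndufs4. The mesoderm sums that remained were 320 and 507 in knockout and 193 in wild type. That fit is therefore no test of the part of cell types.

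Genes that work with the complexes were described from fixed lists. Of 39 tested assembly factors outside the name rule, 2 were higher and 6 lower in knockout at day 6, or 20.5% called, against 34.1% of all tested genes (17.9% higher, 16.2% lower). Cox20, which handles a newly made subunit of complex IV, had a log2 difference of -1.28 (SE 0.17, adjusted p = 0.0015), with a mean of 20.8 ± 6.15 FPKM in knockout and 51.0 ± 3.55 FPKM in wild type (SD, n = 2 each). Cox11, which delivers copper, differed by -0.66, and Cox16 by -0.50. Bcs1l, which inserts the Rieske protein into complex III, differed by 0.39, and the copper chaperone Cox17 by 0.38. The largest positive value of the list was that of Pet117, listed at 19.6 and 6.55 FPKM in knockout and at 0 and 5.51 FPKM in wild type, with a log2 difference of 2.29 that was not called (SE 1.03, adjusted p = 0.116).

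Among 16 electron carriers and quinone-linked genes, 5 were higher and 3 lower in knockout at day 6, against 17.9% and 16.2% of all tested genes. Cycs, somatic cytochrome c, was at 30.2 ± 2.87 FPKM in knockout and 47.1 ± 1.06 FPKM in wild type (SD, n = 2 each), with a log2 difference of -0.63 (adjusted p = 9.2e-04). Gpd2, the mitochondrial glycerol phosphate dehydrogenase, differed by -0.57 and Coq3, of ubiquinone synthesis, by -0.42. In the other direction stood Coq9 at 0.57 and Coq6 at 0.43, both of ubiquinone synthesis, and Etfdh at 0.37. Cycs was also called in the interaction of day 6 minus day 3, at -0.64 (adjusted p = 0.021).

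Of 17 regulators of mitochondrial biogenesis, 5 were higher and 5 lower at day 6, against 17.9% and 16.2% of all tested genes. Polg, the mitochondrial DNA polymerase, was higher in knockout by 1.10 on the log2 scale, the coactivator Ppargc1b by 0.72 and the mitochondrial RNA polymerase Polrmt by 0.47. Lower in knockout were Gabpb1 by a log2 difference of -0.45, Yy1 by -0.36 and Gabpa by -0.27. Gabpa and Gabpb1 encode the subunits of GABP, and Gabpa lies beside and overlaps Atp5j on the genome. Of 20 genes of the citric acid cycle and pyruvate entry, 4 were higher and 3 lower, or 35% called, close to the 34.1% of all tested genes. Idh3b differed by 0.38 and Dlst by 0.27, while Idh3a was at -0.43, Dld at -0.39 and Dlat at -0.23. At day 0 the mitochondrial pyruvate carrier gene Mpc1 was the single call on these lists, at -0.70 (SE 0.09, adjusted p = 0.026), with 16.7 ± 1.74 FPKM in knockout and 27.8 ± 0.0559 FPKM in wild type (SD, n = 2 each).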

How the data were processed

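RNA was sequenced from 12 embryoid body libraries, 2 per genotype and day. The authors deposited FPKM values per gene. Per the series' design text, single-end reads were adapter-trimmed (Trim Galore 0.4.1) and aligned to mm10 (TopHat2 2.0.13). Cufflinks 2.2.1, Cuffdiff and HTSeq 0.6.1 are named per the submitters' processing notes, without a statement of the tool that made the values. Gene annotation and use of strand: not given in the sources used here. All 92 ERCC spike-in entries were at 0. The stem cell table and the ChIP-seq data were not used here: that table numbers 3 replicates per genotype where the labels give 2 samples.

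Columns were matched to samples by genotype, replicate and day. Genes with a mean of at least 1 FPKM were tested on log2(FPKM + 1) by limma 3.58.1 (R 4.3.3), with 1 mean per group, a variance trend, two-sided tests and Benjamini-Hochberg adjustment at 0.05. The test was also run on simulated data, for knockout against wild type at day 6 with 200 of 12472 genes changed. It recovered 42% of changes of 0.5 log2 and 85% of those of 1.0 log2, with 8 false calls. The simulation used the same spread at each day and changed far fewer genes than the 34.1% called at day 6. Replicates of day 6 differed by over 1.5-fold for 613 genes in knockout and 1070 in wild type, more than earlier. These rates therefore do not carry over to the day 6 comparison. No sample was dropped or imputed. The design text names 2 independent stem cell lines per genotype, and p-values measure the spread between these libraries.

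The members, lists and tests were chosen with earlier results of these data known. Members named in the text are a fixed set of central subunits and isoforms, those called with the largest changes in each comparison, and the highest and lowest of each complex, and Ndufb11, Pet117 and the motif examples were added after their values were seen. Depth was estimated from the steps of low FPKM values in genes with 1 transcript, taking effective length as length minus 200; 76.5% to 80.7% of low values lay within 0.1 of a whole number of reads. Transcript length and GC content were available for all 87 members and 99.4% of tested genes. Of the 87 members, 28 overlap another RefSeq gene. Respiratory genes have many processed pseudogenes, and reads shared with these could not be followed. Alternatives were another pseudocount, no filter, quantile normalization, removal of length and GC trends, a replicate block, fits to 1 day, genotype comparisons without day 6, and leaving out each library. Division by summed FPKM and the fits without day 6 to the first steps in time were chosen after seeing the data. Some single-gene results are not reported here.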

Additional observations from a re-analysis of the deposited data

Results flagged for a closer look

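For 3 genes the knockout difference at day 6 departed from that at day 3 by a test of the interaction with limma, and each was more negative at day 6. The interaction was -1.02 on the log2 scale for Ndufaf4 (adjusted p = 0.0078), -0.74 for Ndufb6 (adjusted p = 0.041) and -0.41 for Ndufs4 (adjusted p = 0.027). Over the alternatives the adjusted p reached 0.053 for Ndufaf4, 0.153 for Ndufb6 and 0.116 for Ndufs4. At day 6 both knockout libraries lay below both wild type libraries for each of these genes.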

How the results depend on the processing

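Counts of members at day 0 (0), at day 3 (0) and in the interaction of day 3 minus day 0 (0) were the same in every alternative, except 1 member at day 3, Ndufa13, after division by summed FPKM. The day 6 count of 20 became 0 when the 4 libraries of that day were fitted alone. The interaction of day 6 minus day 3 went to 5 members with quantile normalization, 0 with length and GC trends removed and 1 with a replicate block within genotype. Quantile normalization gave 20 members at the first step in knockout and 26 and 10 at the first and second step in wild type, and division by summed FPKM gave 17, 27 and 11. Leaving out 1 library gave 12 to 19 members at day 6, 1 to 7 in the interaction of day 6 minus day 3, 21 to 26 and 20 to 31 at the first and second step in knockout, and 32 to 57 and 8 to 23 in wild type. The lowest counts came without knockout replicate 2 of day 6 (day 6), without any 1 library of day 3 or wild type replicate 1 of day 6 (interaction), without knockout replicate 2 of day 0 and replicate 1 of day 3 (steps in knockout), and without wild type replicate 1 of day 3 and replicate 2 of day 6 (steps in wild type). The highest count of the interaction came without wild type replicate 2 of day 6. The share called over all tested genes also moved in such fits, which have fewer libraries. The causes were not tested. Differences between replicates 1 and 2 had correlations of -0.08 to 0.24 over 15 pairs of groups, 1 of them over 0.1. That pair was knockout and wild type at day 6, which therefore deviated together in part. In both genotypes of day 6, replicate 2 had the higher mesoderm and trophoblast sums and the lower pluripotency sum. The labels do not tie a number to a line, and the fits reported have no block. If a number marks the same line at each day, the block within genotype applies to the steps in time and the interaction: it gave 34 and 30 members in knockout and 39 and 18 in wild type at the first and second step. With a replicate block 18 members were called at day 6 and 2 in the interaction. For the single genes named, 1000 values kept direction and side of the threshold, 97 lost the call, 6 gained it, 26 uncalled values changed sign and 0 called values did. The comparison of stem cells was not run. Depth and 2 libraries per group limit what can be seen.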

Other observations

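A list of 18 tested genes for glycolysis also holds Pdk1, a pyruvate dehydrogenase kinase. Of this list, 11 fell and 1 rose at day 3 against day 0 in knockout (28% lower and 24.6% higher over all tested genes), and 14 fell and 1 rose in wild type (30.2% and 25.5%). At day 6 against day 3, 14 rose and 2 fell in knockout (29.2% higher and 29.9% lower over all tested genes), and 12 rose and 1 fell in wild type (17.4% and 18.4%), with median log2 changes of 0.78 and 0.69. Tpi1, triose phosphate isomerase, rose by 1.23 in knockout and 0.98 in wild type at that step. The members of the respiratory complexes had medians of -0.13 and -0.14 there.

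At day 6, 18 of 78 mitochondrial ribosomal protein genes were higher and 1 lower in knockout than in wild type, against 17.9% higher and 16.2% lower of all tested genes. Of 83 cytosolic ribosomal protein genes 15 were higher (18.1%) and 6 lower (7.23%). Of the list for glycolysis 3 were higher and 0 lower, Gpi1, Tpi1 and Pkm. Hexokinase 1 (Hk1) was higher in knockout at day 3, at 16.9 ± 2.89 FPKM against 7.41 ± 0.228 FPKM in wild type (SD, n = 2 each), with a log2 difference of 1.08 (adjusted p = 0.012 by limma).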
